A study of Labeotropheus fuelleborni x Mchenga conophoros and Petrotilapia nigra x Mchenga conophoros and Petrotilapia nigra x Aulonocara baenschi with 10 samples.

Results

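F1 hybrid males whose mothers were Mchenga conophoros, a sand-dwelling cichlid of Lake Malawi, were set against F1 hybrid males whose mothers came from other sand-dwelling species. The males were grouped by the dam species that the labels give. On the Mchenga-mothered side stood 4 of the 10 males, a social sand and a social rock brother from the brood Petro_MC (sire Petrotilapia nigra) and from the brood LF_MC (sire Labeotropheus fuelleborni). On the other sand-mothered side stood 4 males, likewise a social sand and a social rock brother each, from Petro_AB (Petrotilapia nigra sire, Aulonocara baenschi dam) and MZ_TI (Maylandia zebra sire, Tramitichromis intermedius dam). A social sand male courted over sand and a social rock male courted over rock while both brothers shared a tank. The remaining 2 males, LF_MC and MZ_MC, both had Mchenga dams, were tested without a rival and courted over rock, and they served only as a check. By the series' description males of a cross are siblings, so the lone LF_MC male was a brother of the LF_MC dyad, and the lone MZ_MC male came from a brood of its own. Every library was whole-brain mRNA of a male with a rock-dwelling father and a sand-dwelling mother, and the males were adults whose exact ages the labels and methods do not state. Because the labels place brothers in the same brood, the 4 against 4 males are 2 broods against 2, and dam species cannot be told apart from brood or, between LF_MC and MZ_TI, from sire species.

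Lake Malawi holds a large radiation of closely related cichlids, which includes rock-dwelling lineages and sand-dwelling lineages such as Mchenga, Aulonocara and Tramitichromis. Males of many sand-dwelling species shape bowers to court females, and males of rock-dwelling species often hold territories among stones. An F1 hybrid carries a nuclear genome copy from each parent and receives its mitochondrial genome from its mother, so hybrids with different dam species differ in their maternal alleles. In whole brain, fewer cells of a type and less RNA per cell cannot be told apart.

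Total counts per library ran between 250677 and 504830 on the Mchenga-mothered side and between 206320 and 694114 on the other side (exact permutation test, two-sided, p = 0.743, smallest possible 0.0286). Loci with at least 1 count averaged 14400 ± 1999 in Mchenga-mothered males and 13830 ± 2603 in the others (SD, n = 4 each, exact permutation p = 0.629). The LF_MC social rock male had the highest scaling factor of the dyad males, 1.33, and the lowest share of counts in its 10 most abundant loci, 6.02%. Its brothers had low shares too, 9.1% in the LF_MC social sand male and 10.4% in the lone LF_MC male. In the dyad males of the remaining broods the share ran from 17.8% to 23.3%. The scaling factor was 1.25 in the lone LF_MC male and 1.05 in the LF_MC social sand male. The calls between dam sides, the named-locus median, the gene lists and some single genes are given with and without the LF_MC social rock male. Other results are given with it only, among them the interaction, the counts of loci without overlap and the check on lone males.

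Between the dam sides only 2 of 6765 tested loci passed the threshold of an adjusted p under 0.05 and a 2-fold difference, 0.0296% of the loci, with 1 in each direction (0.0148% each). This count treats brothers as separate males. With the counts of brothers summed, 2 broods against 2, edgeR called 0 loci. EdgeR with brood as a fixed block, whose error is the spread between brothers, called 53. Limma-voom with brood as a random block called 0, but limma-voom without a block called 0 too. The correlation of brothers in the blocked fit was 0.01, so its 0 calls cannot be credited to the block. Neither of the 2 loci called in the main fit has a name in the gene list of the study's supplement. That list is the only source of names here, so both loci are given by the number they carry in the count table. For gene27192, CPM (counts scaled to library size and TMM factor) were 140.3 and 129.2 in the Petro_MC sand and rock males and 252.4 and 120.8 in the LF_MC sand and rock males. In the other sand-mothered males gene27192 stood at 0 and 6.89 CPM in the Petro_AB sand and rock brothers and at 0 and 20.4 CPM in the MZ_TI sand and rock brothers. All 4 Mchenga-mothered males lay above all 4 others, and the fitted difference was 4.15 on the log2 scale (SE 0.63, edgeR adjusted p = 0.0204). The raw counts behind these values were 42, 59, 62 and 72 in Mchenga-mothered males against 0, 4, 0 and 11 in the others.

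The second locus, gene19653, ran the other way. It had 10.02 and 10.9 CPM in the Petro_MC sand and rock males and 8.14 and 5.03 CPM in the LF_MC sand and rock males, against 68.6 and 87.9 CPM in the Petro_AB and 136.5 and 68.4 CPM in the MZ_TI sand and rock males. The sides did not overlap, and the locus was lower on the Mchenga side by a log2 difference of -3.36 (SE 0.50, edgeR adjusted p = 0.0204). It rests on few reads, with 3, 5, 2 and 3 counts in the Mchenga-mothered males. The LF_MC and MZ_MC lone males had 76.9 and 116.5 CPM of gene27192 and 26.4 and 2.16 CPM of gene19653. On log2 CPM with a prior count of 2, both fell nearer the Mchenga-mothered social rock males at both loci. At gene19653 the lone LF_MC male lay between the sides, above all 4 Mchenga-mothered dyad males and below all 4 others, so its placing there depends on the scale. With brothers summed the edgeR adjusted p was 0.513 for gene27192 and 0.646 for gene19653. With brood as a random block it was 0.5001 for each in limma-voom, and limma-voom without a block called neither locus. Without the LF_MC social rock male both loci missed the threshold (edgeR adjusted p = 0.101 for each) with log2 differences of 4.45 and -3.16.

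The next loci in order of p lay just outside the threshold and are described without a call, chosen after their values were seen. Gene19399 had 143.7, 144.5, 109.9 and 67.1 CPM in the Petro_MC sand, Petro_MC rock, LF_MC sand and LF_MC rock males, against 31.7, 20.7, 20.7 and 11.1 CPM in the Petro_AB sand, Petro_AB rock, MZ_TI sand and MZ_TI rock males. The sides did not overlap, and its log2 difference was 2.51 (SE 0.44, edgeR adjusted p = 0.0667). Gene30010 had 0 counts in all 4 Mchenga-mothered dyad males, against 142.5 and 56.9 CPM in the Petro_AB and 78.6 and 3.7 CPM in the MZ_TI sand and rock males, at least 37.5-fold lower when the Mchenga side is set to a floor of 3 counts over the group (edgeR adjusted p = 0.0832). This locus was not absent from every male with a Mchenga dam, since the lone MZ_MC male had 51.8 CPM while the lone LF_MC male had 0. MZ_MC shares its sire species with MZ_TI.

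**Figure D1:**
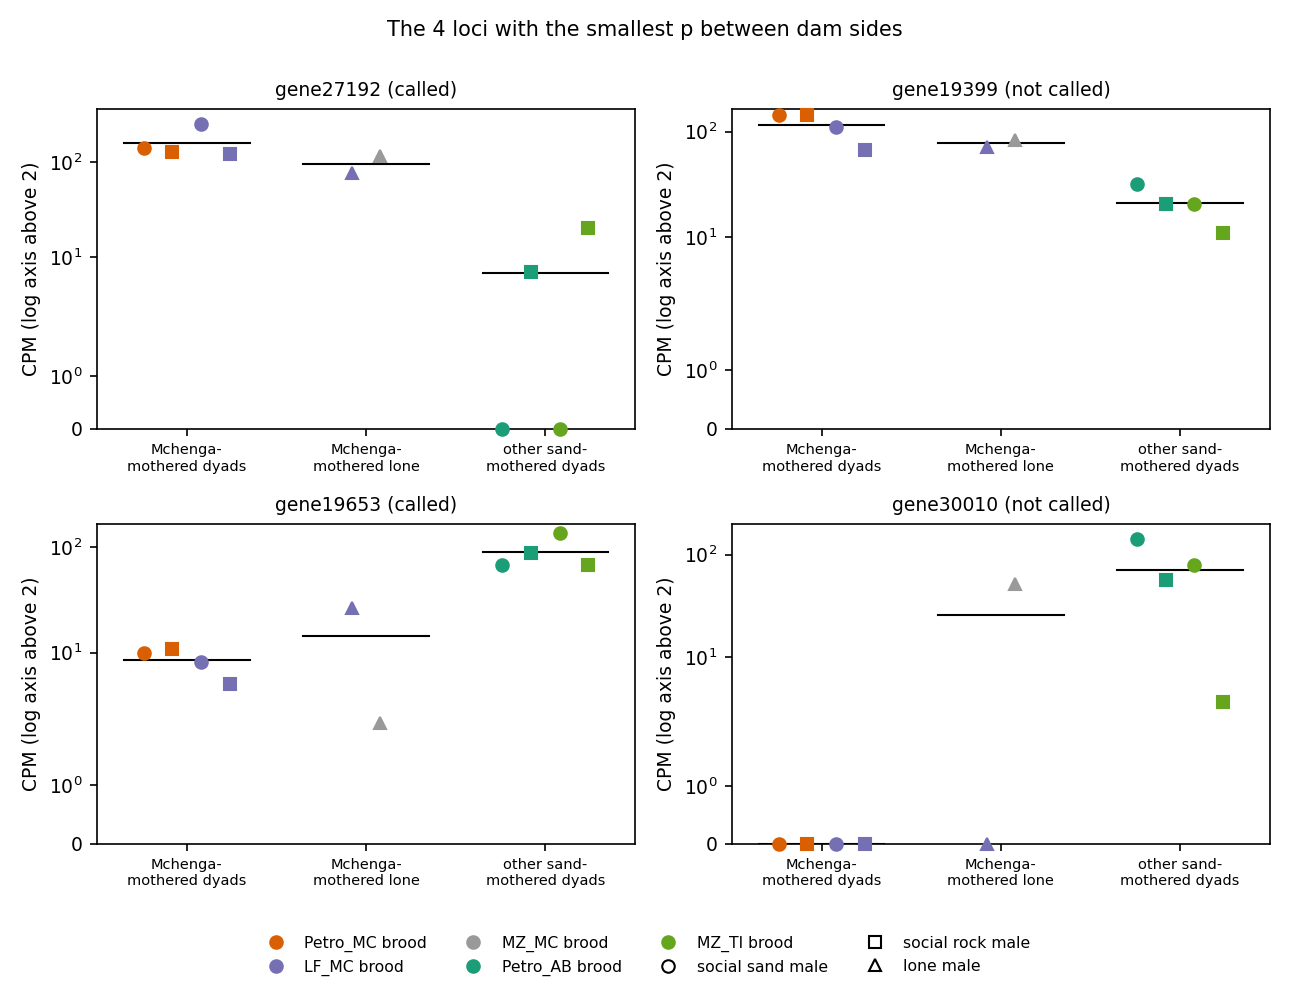
CPM of 4 loci in each male (vertical axis, logarithmic above 2 and linear below), with Mchenga-mothered dyad males on the left, lone Mchenga-mothered males in the middle and other sand-mothered dyad males on the right; colours mark broods, shapes mark social context and bars mark group means. The dyad sides do not overlap at any of the 4 loci, and at gene30010 the lone MZ_MC male, with 51.8 CPM, lies among the other sand-mothered males.

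Beyond these loci the counts of loci apart by dam side are given as a description. With no difference between sides, an unadjusted p under 0.05 would fall to a share of about 0.05 of loci. A random split into 4 and 4 would separate untied values with a chance of 0.0286, a guide only, since brothers are not independent. The shares below for these 2 measures were no higher. Unadjusted edgeR p fell under 0.05 at 321 loci (4.75% of those tested), 152 higher (2.25%) and 169 lower (2.5%) on the Mchenga side. The 4 and 4 libraries did not overlap at 138 loci (2.04%), of which 64 were higher (0.946%) and 74 lower (1.09%). With males of the same context compared between sides, both Mchenga-mothered males lay above both others in sand and again in rock at 203 loci (3%). They lay below both others in both contexts at 187 loci (2.76%). Some loci were read on a single side: 15 loci had counts in all 4 Mchenga-mothered males and none in the 4 others (0.0685% of loci read in any dyad male), and 12 loci the reverse (0.0548%). Of the 15, the lone LF_MC male had counts at 9 and the lone MZ_MC male at 10. Of the 12 loci without counts in the Mchenga-mothered dyad males, the lone LF_MC male, also with a Mchenga dam, had counts at 5 and the lone MZ_MC male at 9. Among loci deep enough to test, 6 of 6765 were at 0 throughout the other side and at least 8.99-fold to at least 52.5-fold higher in Mchenga-mothered males. Another 6 of 6765 were at 0 throughout the Mchenga side and at least 8.57-fold to at least 37.5-fold lower there. Such loci passed the filter only through the side where they were read. The filter thus set a high fold in advance, and the lower ends of these ranges are no result.

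The dam difference can be read in 2 comparisons that share no library. Petro_MC against Petro_AB keeps the sire species the same, and LF_MC against MZ_TI changes both parents. Each alone called more loci than all 8 males together, with brothers standing in for replicates of a brood. The calls were 137 of 6811 (2.01%) between the Petrotilapia-sired broods and 98 of 7867 (1.25%) between the others. In these fits the filter let in loci read in a single male, and the error was the spread between brothers. Filter and error thus differ from those of the fit of 8 males, and the counts of calls cannot be compared directly. Over all loci the log2 differences of the 2 comparisons were nearly unrelated. Within a comparison, differences in sand and in rock brothers correlated across loci at only 0.195 (Petro_MC minus Petro_AB) and 0.245 (LF_MC minus MZ_TI). Such low values limit how far the 2 comparisons could correlate. Across the 6023 loci tested in both, log2 differences had a Pearson r of -0.04 and a Spearman rho of 0.04, a description over loci, which are not independent, and 52.9% of loci had the same sign. Of these loci 15 were called in both comparisons, and 5 of the 15 had the same direction. The 5 were 5.26% of the 95 Petrotilapia calls among the 6023 loci and 6.41% of the 78 calls between LF_MC and MZ_TI. These shares count only loci with the same direction. In either direction, 15 of the 95 Petrotilapia calls were also called between LF_MC and MZ_TI, beside 78 of all 6023 loci. Likewise 15 of the 78 calls between LF_MC and MZ_TI were called between the Petrotilapia-sired broods, beside 95 of the 6023. The other 10 loci called in both had opposite directions, and 9 of these were higher in Petro_MC than in Petro_AB and lower in LF_MC than in MZ_TI.

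**Figure D2:**
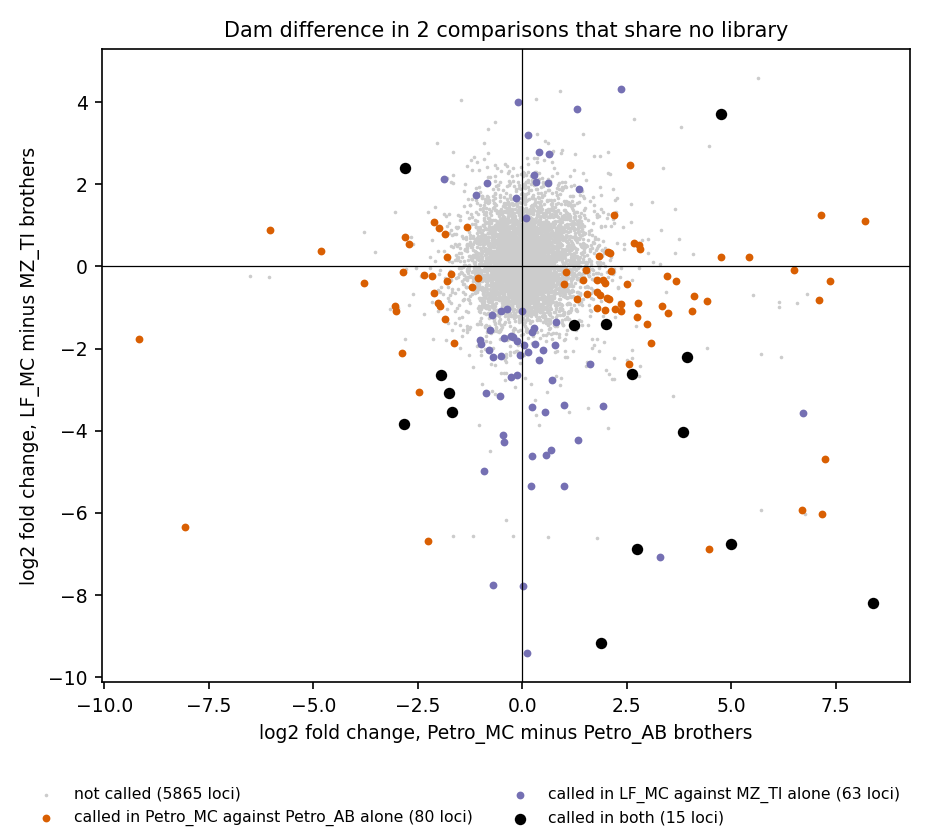
Log2 difference of each locus tested in both comparisons between Petro_MC and Petro_AB brothers (horizontal axis) and between LF_MC and MZ_TI brothers (vertical axis); orange and purple points were called in a single comparison and black points in both. Of the 15 black points, 5 lie in the quadrants of shared direction and 10 in the quadrants of opposite direction.

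Of the 5 loci with a shared direction, 1 was higher on the Mchenga side, gene27192, and 4 were lower, which include gene19653. The other 3 are unnamed and had fitted log2 differences of -2.07, -2.05 and -2.07 over the 8 males. Their edgeR adjusted p over all 8 males was 0.619, 0.698 and 0.698, and none was called there. At the most abundant of them the Petro_MC sand and rock males had 531.3 and 565 CPM against 1752 and 2104 CPM in the Petro_AB brothers. The LF_MC sand and rock males had 109.9 and 53.7 CPM there against 264.8 and 1334 CPM in the MZ_TI brothers. Within each comparison the Mchenga-mothered brothers were lower, but Petro_MC males lay above the MZ_TI sand male, so the 2 sides overlapped.

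Named loci took little part in these calls. Over all loci, 137 of 6811 (2.01%) were called between the Petrotilapia-sired broods and 98 of 7867 (1.25%) between LF_MC and MZ_TI. The named loci were listed by the study for their context difference and are no sample of all loci. Among them 3 of 666 were called between LF_MC and MZ_TI, and 2 of 502 between the Petrotilapia-sired broods. The first was wdr35, a component of the intraflagellar transport that builds cilia, and its call came from a single male: it had 0 and 2 counts in the Petro_MC sand and rock males against 0 and 325 counts in the Petro_AB brothers, and at most 10 counts in any other library. It was too sparse to test over all 8 males. The second was LOC101475135, annotated as a phospholipase C eta-2, an enzyme of phosphoinositide signalling. It had 507.9 and 3690 CPM in the Petro_MC sand and rock males against 1990 and 4564 CPM in the Petro_AB brothers (log2 difference -1.05, SE 0.28, edgeR adjusted p = 0.0103), so only the Petro_MC sand male lay below both Petro_AB males.

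In LF_MC against MZ_TI the 3 named calls were LOC101477176, itm2a and hsp90ab1. LOC101477176, annotated as subunit 1 of Mediator, the complex that links transcription factors to RNA polymerase II, had 264.6 and 75.5 CPM in the LF_MC sand and rock males against 546.1 and 288.5 CPM in MZ_TI (log2 difference -1.50, SE 0.38, edgeR adjusted p = 0.0120). It was 0.28 higher on the log2 scale in Petro_MC than in Petro_AB, a difference that was not called. The membrane protein gene itm2a had 97.7 and 441.4 CPM in LF_MC against 12.4 and 192.4 CPM in MZ_TI (log2 difference 1.67, SE 0.46, edgeR adjusted p = 0.0274). The cytosolic chaperone gene hsp90ab1 had 256.5 and 1368 CPM in LF_MC against 95.2 and 678.8 CPM in MZ_TI (log2 difference 1.18, SE 0.34, edgeR adjusted p = 0.0422), and its difference between the Petrotilapia-sired broods was 0.10. Each of these 3 genes therefore differed in the same direction between both sand males and both rock males of LF_MC and MZ_TI.

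Broods of the same dam side also differed from each other. With the 4 broods as terms of a single edgeR fit, 79 loci (1.17%) were called between LF_MC and Petro_MC, which share the dam species, and 70 loci (1.03%) between MZ_TI and Petro_AB. The contrast of the dam sides in that fit, which takes the spread between brothers as its error, called 53 loci (0.783%), 17 higher and 36 lower on the Mchenga side. A single named locus was called in either brood comparison, LOC101469773, annotated as the homeobox gene Dlx4b of the Distal-less family, and it was called in both. It had 8.14 and 0 CPM in the LF_MC sand and rock males against 280.7 and 0 CPM in the Petro_MC brothers, and 4.14 and 0 CPM in the MZ_TI sand and rock males against 116.1 and 5.17 CPM in the Petro_AB brothers. Both differences rest on the social sand brothers of the Petrotilapia-sired broods (edgeR adjusted p = 0.00877 and 0.0228), and the locus did not follow the dam side.

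Whole profiles were compared by distance. Euclidean distances of log2 CPM averaged 93.7 ± 17.1 over 16 pairs of males across sides and 95.1 ± 12.5 over 12 pairs within sides (mean ± SD), a difference of -1.39 with an exact permutation p of 0.571 (one-sided, for larger distances across sides). These sets differ in social context, since 8 of the 12 pairs within sides and 8 of the 16 across sides join a sand and a rock male. Between males of the same context, distances averaged 85.2 ± 15.2 over 8 pairs across sides and 87.6 ± 12.2 over 4 pairs within sides (mean ± SD), a difference of -2.38 (exact permutation over splits within contexts, one-sided, p = 1, smallest possible 0.111). Brothers were 95.5 ± 14.3 apart over 4 pairs, each of a sand and a rock male. The Petro_MC and Petro_AB males, which share only the sire species, were 86.6 ± 11.2 apart over 4 pairs. Those pairs include males of the same context, so the 2 averages do not compare kinship alone. The nearest library came from the same dam side for 2 of 8 males, Petro_AB sand and LF_MC sand. For every male the other side held more males of its own context than its own side did. Social context took 28.8% of the sum of squares, the dam side 13.6% and the 2 differences between broods within sides 14.1% each on average, against 9.8% for each remaining degree of freedom. The fourth principal component, with 11.3% of the variance, was the only one of the first 4 on which the sides did not overlap. The gap was narrow, from -4.35 in the Petro_AB rock male to -3.70 in the LF_MC rock male. Scores on this component ran from -30.8 in the MZ_TI sand male to 50.2 in the Petro_MC sand male.

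Whether brothers differed by social context in a dam-dependent way was asked with the dam by context interaction, and edgeR called 0 loci (0%), with 177 (2.62%) at an unadjusted p under 0.05. With 2 broods on each side this test has little precision. Among named loci the smallest p belonged to LOC101483856, annotated as synaptotagmin-2, a calcium sensor for fast transmitter release. It had 60.1 and 113.9 CPM in the Petro_MC sand and rock males and 57 and 95.7 CPM in the LF_MC sand and rock males. The other sand-mothered males had 0 and 56.9 CPM in the Petro_AB sand and rock brothers and 0 and 83.2 CPM in the MZ_TI brothers. The locus was thus listed at 0 in both other sand-mothered social sand males and was read in all other males (edgeR adjusted p of the interaction = 0.9999). A second and more abundant locus annotated as synaptotagmin-2, LOC101470284, averaged 238 CPM in Mchenga-mothered males and 144.5 CPM in the others. Its log2 difference between sides was 0.52 (SE 0.41) and was not called. The ubiquitin hydrolase gene uchl1, expressed widely in neurons, had 56.8 and 24.4 CPM in the Mchenga-mothered sand males against 0 and 4.14 CPM in the other sand males, and 48.2 and 73.8 CPM against 41.4 and 49.9 CPM among rock males (interaction not called). The gene cacybp, for a calcyclin-binding protein, ran the other way, at 0 in both Mchenga-mothered sand males against 31.7 and 20.7 CPM in the other sand males, and at 39.4 and 60.4 CPM against 27.6 and 40.7 CPM among rock males (interaction not called).

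The 812 loci with names were listed by the study for their difference between social rock and social sand in these same males, so they are no sample of all genes, and 548 of them could be tested for dam side. None was called. At an unadjusted edgeR p under 0.05, 17 were higher and 1 lower on the Mchenga side, beside 152 (2.25%) and 169 (2.5%) of all 6765 loci. In each context both Mchenga-mothered males lay above both others at 24 of the 548 and below them at 4, beside 203 (3%) and 187 (2.76%) of all loci. The median difference of the named loci, given below, was smaller without the LF_MC social rock male. In order of p the first named loci were a cytochrome c oxidase subunit, atp5pb and sdha, then RBM5, kif1b and ckb, and none of these was called. LOC112436572, annotated as cytochrome c oxidase subunit 8A of the respiratory chain, had 13.4, 43.8, 0 and 92.3 CPM in the Petro_MC sand, Petro_MC rock, LF_MC sand and LF_MC rock males, against 0, 8.62, 0 and 7.4 CPM in the Petro_AB sand, Petro_AB rock, MZ_TI sand and MZ_TI rock males. Both Mchenga-mothered rock males were above every other sand-mothered male, while the sand males overlapped (log2 difference 3.15, SE 0.83, edgeR adjusted p = 0.552).

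The same order of males gave 13.4, 39.4, 8.14 and 99.0 CPM of atp5pb against 0, 24.1, 0 and 16.6 CPM. This gene encodes a stalk subunit of ATP synthase, and its log2 difference was 2.05 (SE 0.66, edgeR adjusted p = 0.698). For sdha, the catalytic subunit of succinate dehydrogenase, the Mchenga-mothered males had 50.1, 72.3, 48.9 and 184.6 CPM against 0, 62.0, 12.4 and 61.04 CPM (log2 difference 1.58, SE 0.53, edgeR adjusted p = 0.726). Within each context both genes were higher in Mchenga-mothered males, and across contexts the sides overlapped. The creatine kinase gene ckb, which buffers ATP in brain, had 56.8, 98.5, 65.1 and 402.8 CPM against 15.8, 84.4, 28.96 and 135 CPM (log2 difference 1.27, SE 0.45, edgeR adjusted p = 0.726). The LF_MC social rock male alone held the highest value of all 8 dyad males for each of these 4 genes. Without the LF_MC social rock male the log2 differences were 2.78 for the cytochrome c oxidase subunit, 1.84 for atp5pb, 1.38 for sdha and 0.63 for ckb, each with an edgeR adjusted p of 1.

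Enzymes of glucose use with small unadjusted p included lactate dehydrogenase and hexokinase. LOC101474340, the A chain of lactate dehydrogenase, had 0, 30.7, 16.3 and 85.6 CPM against 0, 15.5, 0 and 14.8 CPM, with a log2 difference of 2.15 (SE 0.83, edgeR adjusted p = 0.881), and without the LF_MC social rock male it was too sparse to test. LOC101482510, annotated as hexokinase-1, had 33.4, 105.1, 8.14 and 162.8 CPM against 15.8, 48.2, 4.14 and 74.0 CPM, with a log2 difference of 1.14 (SE 0.50, edgeR adjusted p = 0.973) and of 0.93 without the LF_MC social rock male. The 2 lone Mchenga-mothered males had 187.4 and 185.5 CPM of hexokinase-1 and 509.2 and 422.7 CPM of ckb, above all dyad males for both genes. The locus with the smallest p in the other direction was LOC106675238, annotated as adenylosuccinate lyase-like, an enzyme name of purine synthesis, with 3.34, 0, 8.14 and 0 CPM against 36.9, 43.1, 28.96 and 0 CPM (log2 difference -3.61, SE 1.28, edgeR adjusted p = 0.726). The MZ_TI rock male and both lone males were also at 0 there.

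**Figure D3:**
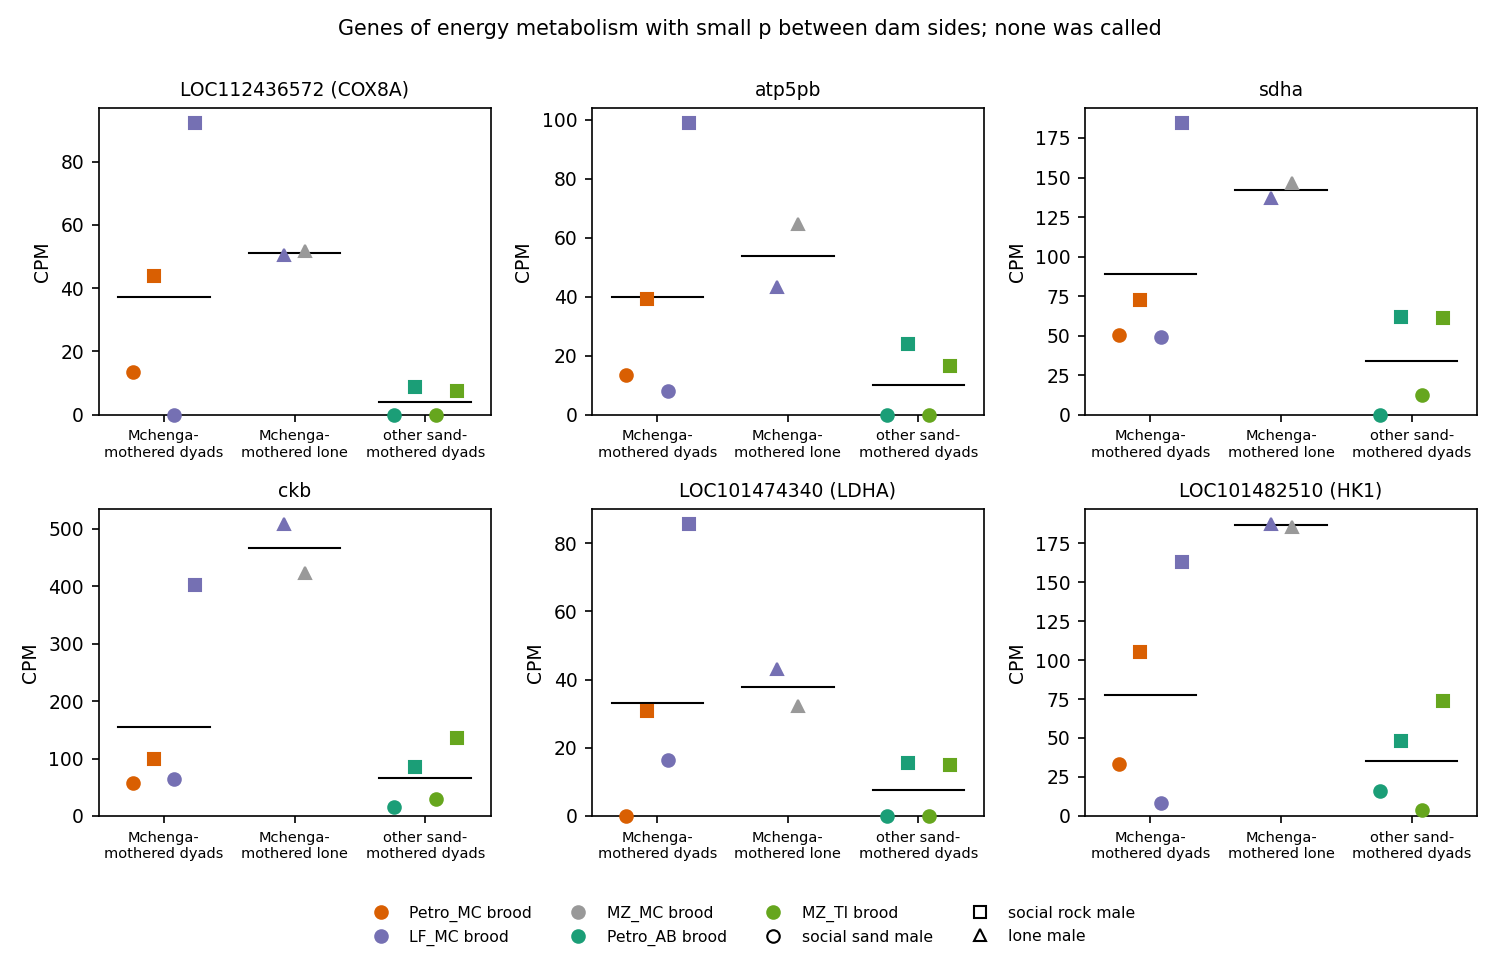
CPM of 6 genes of energy metabolism in each male (linear vertical axes from 0), with Mchenga-mothered dyad males on the left, lone Mchenga-mothered males in the middle and other sand-mothered dyad males on the right; colours mark broods, shapes mark social context and bars mark group means. The LF_MC social rock male is the highest dyad male in every panel, with 402.8 CPM of ckb and 184.6 CPM of sdha.

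Other named loci with small p included LOC101471949, annotated as the splicing regulator RBM5, and kif1b, a kinesin that carries cargo along axons. RBM5 had 117, 324.1, 118.1 and 471.6 CPM against 58.0, 193, 62.0 and 255.2 CPM, higher in Mchenga-mothered males within both contexts. Its log2 difference was 0.89 over all 8 males (SE 0.30, edgeR adjusted p = 0.726). It was 0.89 between the Petrotilapia-sired broods and 0.90 between LF_MC and MZ_TI. RBM5 was picked by its p over these same 8 males, so the likeness of the 2 values is no separate support. The gene kif1b had 36.8, 63.5, 12.2 and 159.4 CPM against 10.6, 34.5, 8.27 and 44.4 CPM (log2 difference 1.47, SE 0.51, edgeR adjusted p = 0.726), and its difference was 0.99 without the LF_MC social rock male, against 0.75 for RBM5. LOC101476311, the alpha-1 subunit of the sodium-potassium pump, had a log2 difference of 0.78 (SE 0.35, edgeR adjusted p = 0.973), and eif2s2, a subunit of the translation initiation factor eIF2, one of -0.79 (SE 0.38, same adjusted p). The most abundant named loci showed no call: ncf4 averaged 5636 ± 3033 CPM in Mchenga-mothered males and 6205 ± 2169 CPM in the others, and LOC101485530, annotated as ependymin-1, a secreted brain protein of fishes, 1818 ± 1824 and 1319 ± 1182 CPM (SD, n = 4 each).

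Over the 548 named loci tested, 433 had a positive and 115 a negative fitted difference, beside 3553 and 3212 of all 6765 loci. The median of the named loci was 0.36 on the log2 scale, against 0.03 over all loci. The median was smaller without the LF_MC social rock male, as given below. Named loci in that male stood a median of 1.499 above the mean of the 8 libraries, against 0.65 in the Petro_MC rock male, 0.43 in the Petro_AB rock male and 0.89 in the MZ_TI rock male. Among social sand males the medians were -0.66 in Petro_MC and -0.56 in LF_MC, against -0.59 in Petro_AB and -1.15 in MZ_TI. The highest male was thus on the Mchenga-mothered side and the lowest, the MZ_TI sand male, on the other side. Leaving out the highest male, on the Mchenga-mothered side, tends by itself to lower the median difference over named loci. Without the LF_MC social rock male the median difference over named loci was 0.05, and without both LF_MC brothers it was also 0.05. The median is not given without the lowest male, the MZ_TI social sand male, so these values do not single out the LF_MC male. The median difference over named loci was 0.15 between the Petrotilapia-sired broods and 0.68 between LF_MC and MZ_TI, against 0.03 and 0.16 over all loci. Sand minus rock medians over the same loci were -1.39 in Petro_MC and -2.15 in LF_MC, against -1.10 in Petro_AB and -1.999 in MZ_TI, so the broods of a side differed more from each other than the sides did.

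**Figure D4:**
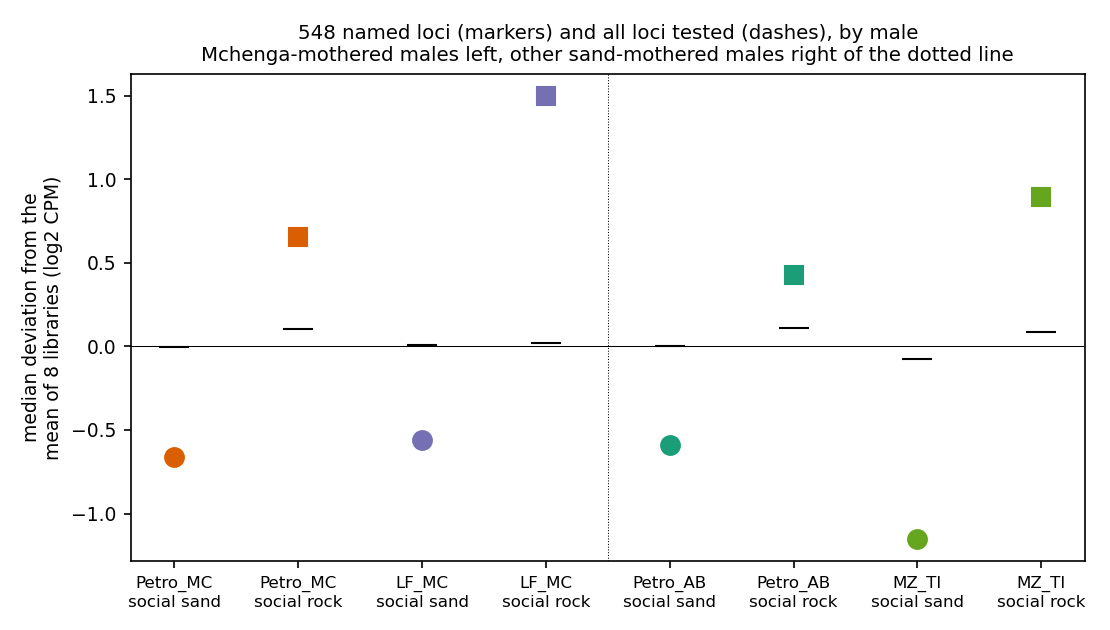
Median deviation of the 548 named loci (markers) and of all tested loci (dashes) from the mean of the 8 dyad libraries, in log2 CPM, for each male, with Mchenga-mothered males left and other sand-mothered males right of the dotted line; circles are social sand and squares social rock males. The LF_MC social rock male is the highest at 1.499 and the MZ_TI social sand male the lowest at -1.15.

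Medians of most gene lists were also lower when the LF_MC social rock male was left out. The lists were drawn from the named loci, over which this Mchenga-mothered male stood highest, so leaving it out tends by itself to lower them. The lists are not given without the lowest male, the MZ_TI social sand male. None of the listed loci was called, in any list. Positive differences were common among named loci, at 433 of 548, beside 3553 of all 6765 tested loci. The counts of positive loci below stand beside that background and were not tested against it. Synaptic vesicle and release genes had positive differences for 21 of 25 loci, with a median of 0.30, and this median was 0.00 without the LF_MC social rock male. Among them the SNARE protein SNAP-25 (LOC101468238), which drives vesicle fusion, had 203.8, 481.8, 285 and 795.6 CPM in Mchenga-mothered males in the order used above, against 163.6, 334.2, 198.6 and 453.1 CPM (log2 difference 0.57, SE 0.29, edgeR adjusted p = 0.973), while the second SNAP-25 locus, snap25, averaged 1031 and 947.4 CPM on the same sides (log2 difference 0.04). Mitochondrial respiration genes were positive at 8 of 9 loci with a median of 0.38, and their median was -0.19 over the 8 loci testable without that male. Glutamate receptor and postsynaptic genes had 11 of 13 positive and a median of 0.48, which was 0.34 without it. Calcium sensors and handling genes had 16 of 18 positive with a median of 0.32 and 0.02 without it. Calmodulin 2, calm2, was at 76.8, 378.9, 130.3 and 1197 CPM against 68.6, 344.6, 74.5 and 495.7 CPM, and the LF_MC brothers were the highest sand and the highest rock male. The 13 replication, repair and cell cycle loci had a median of -0.25, with 6 positive, and 0.06 without that male. Brain patterning transcription factors, 7 of 7 positive with a median of 0.72, had a median of 0.42 over 6 loci without it, with no locus at an unadjusted p under 0.05. The other lists of 5 or more loci outside the cell type markers (immune genes, protocadherins and adhesion, ribosome and translation, chaperones, protein kinase A signalling, secretory granules) had medians between 0.25 and 0.50, and between -0.07 and 0.29 without that male.

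**Figure D5:**
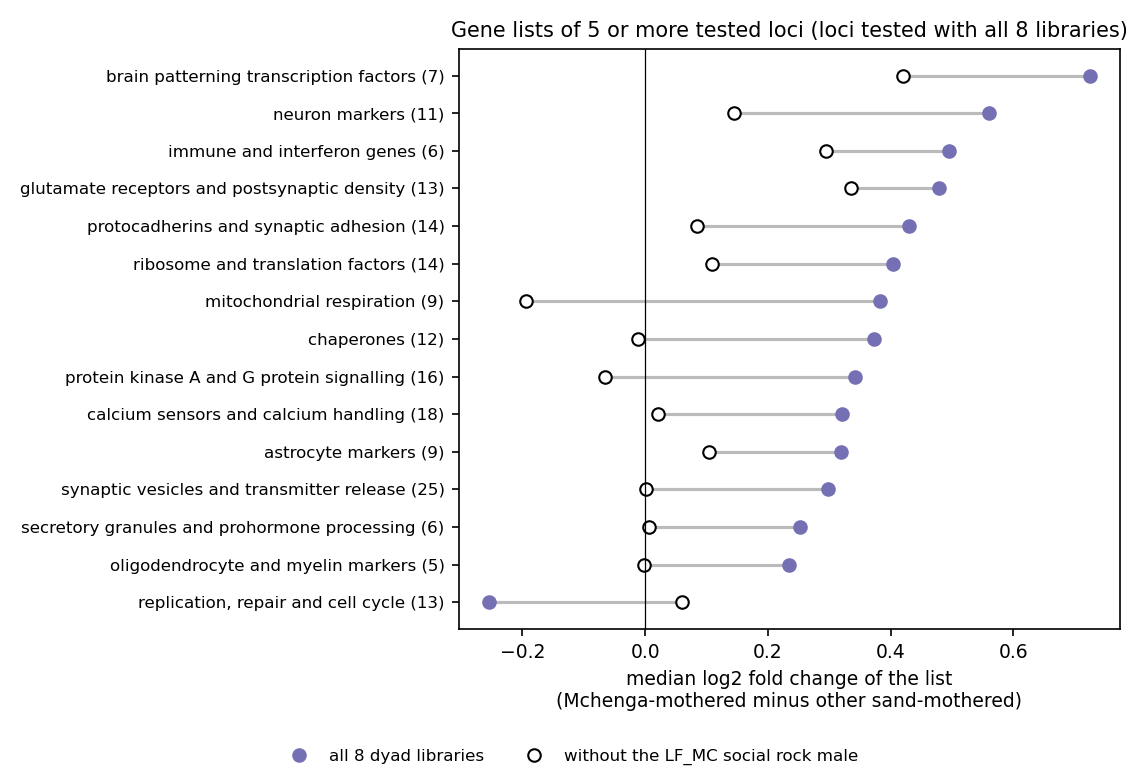
Median log2 difference (Mchenga-mothered minus other sand-mothered, horizontal axis) of each gene list with 5 or more tested loci, with all 8 dyad libraries (filled) and without the LF_MC social rock male (open); the number of tested loci stands beside each list. Medians of mitochondrial respiration move to -0.19 from 0.38 and those of synaptic vesicles to 0.00 from 0.30 when that male is left out. That male stood highest over the named loci from which the lists were drawn.

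Medians of neuron, astrocyte and myelin markers were also lower without the LF_MC social rock male, the highest male over the named loci. Of all 548 named loci tested, 433 had positive differences. Neuron markers, all 11 with positive differences and a median of 0.56, summed to between 1319 and 6047 CPM in Mchenga-mothered males and between 1340 and 3492 CPM in the others. Astrocyte markers, with 7 of 9 positive and a median of 0.32, summed to between 1083 and 5950 CPM and between 860.5 and 4337 CPM on the same sides. Myelin and oligodendrocyte markers, with 4 of 5 positive and a median of 0.23, summed to between 705.1 and 3452 CPM against between 442.6 and 2055 CPM. Without the LF_MC social rock male the 3 medians were 0.14, 0.10 and 0.00. The part of cell composition in the gene differences above was not tested. Myelin protein zero, mpz, had 421, 889.2, 557.7 and 2111 CPM in Mchenga-mothered males against 390.5, 1160, 268.9 and 1272 CPM in the others, and the glutamine synthetase locus LOC101463785, an astrocyte enzyme, 83.5, 186.2, 77.3 and 332.3 CPM against 79.2, 105.1, 24.8 and 194.2 CPM, with the LF_MC rock male highest in both. No named locus marks erythrocytes, pituitary, retina or skeletal muscle, so such tissue could not be looked for, and microglia and endothelium had 1 and 0 tested markers.

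The lone males served as the check on the dam difference. Of the 321 loci at an unadjusted p under 0.05, 263 (81.9%) lay nearer the Mchenga-mothered than the other sand-mothered social rock males in the lone LF_MC male, against 66.8% of all tested loci. In the lone MZ_MC male, the only male with a Mchenga dam from a further brood, 199 of the 321 (62.0%) did so, against 62.0% of all loci. At the 138 loci whose 4 and 4 libraries did not overlap the figures were 76.8% in the lone LF_MC male and 56.5% in the lone MZ_MC male. The share was thus above its background in the male whose own brothers enter the comparison, and at or below it in the male from the separate brood. That male, MZ_MC, shares its sire species with MZ_TI, a brood of the other side. In a single male, brood and sire species cannot be told apart, so the check cannot decide whether the difference follows the dam.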

How the data were processed

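Whole-brain mRNA of 10 F1 hybrid males was sequenced from a stranded library kit. According to the study's methods and the submitters' processing notes, the authors aligned reads with TopHat2 2.0.9 to the genome MZ_UMD2a, used SAMtools 0.19, and deposited raw counts per locus from HTSeq 0.6.1. EdgeR 3.6.8 appears in those notes too. Neither annotation release, counting strand nor handling of multiply aligned reads is stated in the sources read, so overlapping, antisense and near-identical loci may share reads. The counts carry locus numbers, and 812 loci took a name from the gene list of the study's supplement, which was made from these same males. No sequence or position is given because no genome was used here.

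Loci passing edgeR's filterByExpr (minimum 10 counts, by dam side and context) were scaled by TMM and tested over the 8 dyad libraries by edgeR's quasi-likelihood method (version 4.0.16 under R 4.3.3), with social context as covariate. A locus was called at a 2-fold difference or more with a p under 0.05 after Benjamini-Hochberg adjustment over the 6765 loci. Log2 CPM for distances and deviations took a prior count of 2, and a count of 0 was set to a floor of 3 counts over a group for bounds, which cover counting error only. Alternative tests came from DESeq2 1.42.0 and limma 3.58.1, other alternatives changed scaling, filter, depth, libraries and broods, and figures were drawn with matplotlib 3.10.9. The tests were run on simulated data with planted differences. Those data held no difference between broods, so they cannot show how the tests behave with brothers of 2 broods against 2. Depth was low, at 206320 to 694114 counts a dyad library, so values near 10 CPM rest on a few reads.

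Brothers come from a shared brood per the series' description. Differences between broods correlated between sand and rock brothers across loci at 0.159 (LF_MC minus Petro_MC), 0.168 (MZ_TI minus Petro_AB), 0.195 (Petro_MC minus Petro_AB) and 0.245 (LF_MC minus MZ_TI). Brood cannot be paired across dam sides. The main fit and the interaction fit held no brood term, and brood entered as a random or a fixed term in other fits only. Over broods alone, 2 against 2 cannot reach significance by permutation, and p-values over 8 males measure the spread between brothers and broods together. Named genes were taken by a rule: called genes by p and size, or, where fewer than 20 were called, the smallest p, with the most abundant genes, the smallest p of each list and of the interaction. Examples were selected from these with their values known, as were the named loci called in single comparisons of broods. The members, lists and rule were chosen with earlier results of these data known.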

Additional observations from a re-analysis of the deposited data

Results flagged for a closer look

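In groups of 4 males, 4 of 78 groups of values looked at had a male set apart from the other 3 by the usual 5% limit of Dixon's test, which chance gives in about 1 of 20 groups. These were the LF_MC social sand male at gene27192, with 252.4 CPM on the Mchenga-mothered side, and the LF_MC social rock male at ckb, with 402.8 CPM on the same side. For LOC101469773, annotated as Dlx4b, the Petro_MC social sand male stood apart on the Mchenga-mothered side with 280.7 CPM and the Petro_AB social sand male on the other side with 116.1 CPM.

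Of 33 genes looked at for opposite directions between brothers, 1 moved one way in both Mchenga-mothered broods and the opposite way in both others. The sand minus rock difference of gene27192 was 0.11 in Petro_MC and 1.03 in LF_MC, against -1.24 in Petro_AB and -2.32 in MZ_TI. This puts the mean of the Mchenga-mothered broods 2.35 higher on the log2 CPM scale. The Petro_AB and MZ_TI sand males had 0 counts, against 4 and 11 in their rock brothers. The sizes of the negative differences therefore depend on the prior count. The interaction of dam and context for this locus was not called (edgeR adjusted p = 0.9999).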

How the results depend on the processing

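The 2 calls between dam sides changed in number with nearly every setting. The count was 98 with no filter (30 higher and 68 lower), 0 with limma-voom (415 loci at an unadjusted p under 0.05), 7 with DESeq2, 1 in thinned libraries, 0 with no context covariate (234 at an unadjusted p under 0.05) and 6 with the lone males added. Leaving out 1 male gave 0 to 42 calls, with 0 (236 at an unadjusted p under 0.05) without the LF_MC rock, 5 without the Petro_AB rock, 6 without the LF_MC sand, 8 without the Petro_MC rock, 13 without the MZ_TI sand, 14 without the Petro_MC sand and 42 without the MZ_TI rock male. Leaving out a brood gave 62 calls without Petro_MC, 4 without Petro_AB, 79 without MZ_TI and 1 without LF_MC, which was neither of the original 2. The Petrotilapia-sired broods alone gave 137 and LF_MC against MZ_TI 98. The cause of these shifts was not tested.

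With brood as a random block in limma-voom 0 loci were called (405 at an unadjusted p under 0.05), with a correlation of brothers of 0.01, and with brothers summed, 2 broods against 2, edgeR called 0 (200). With brood as a fixed block in edgeR 53 were called, as the error is then the spread between brothers. The interaction gave 4 calls with no filter, 2 without Petro_AB, 3 without MZ_TI and 0 with the brood block.

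Calls between LF_MC and Petro_MC numbered 44 with total counts, 44 with DESeq2 and 33 in thinned libraries against 79. Those between MZ_TI and Petro_AB numbered 38, 42 and 24 against 70. These alternatives, and those of the named-locus median, were chosen after seeing the data. Total counts moved the median of all loci to 0.24 and that of named loci to 0.62.

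The difference of distances was -2.38 between males of the same context, an alternative added after seeing the data. It turned to 0.256 with the 500 most variable loci, and leaving out 1 male gave -4.996 to 1.947, with 1.12 and 0.173 without the Petro_MC sand and rock males and 1.95 without the MZ_TI rock male. Differences of single genes turned for calm2 (-0.0149) and mpz (-0.0074) without LF_MC, and in the Petrotilapia-sired broods for mpz (-0.10), LOC101477176 (0.28) and itm2a (-0.14). Of the other single-gene values, 756 stayed on their side of the threshold, 26 passed it and 13 lost it.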
